A study of Mus musculus with 15 samples.

Results

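The 8 genes described here encode luminal, membrane and secreted proteins of the endoplasmic reticulum (ER) and Golgi that bind calcium, bind glycans or belong with MANF: Manf, Creld1, Creld2, Nucb1, Nucb2, Sdf4, Calr and Canx. All probe sets on the array that carry 1 of these symbols alone were taken, which gave 14 of 45101 probe sets and 8 of 18193 genes. Their RNA was read on 15 arrays of the Affymetrix type Mouse Genome 430 2.0, in 5 groups of 3 primary mouse hepatocyte cultures, all of strain C57BL/6 and all infected with an adenovirus. Of these, 3 groups carried EGFP (the control), wild-type IRE1a or the IRE1a variant S724A for 48 hours and received no treatment. The other two carried a control hairpin (shCON) or the hairpin shIRE1a#2 against IRE1a for 72 hours and then received glucagon, the fasting hormone that drives hepatic glucose output, for 4 hours. According to the series text 3 experiments were done independently, and whether the cultures came from different mice is not stated. The overexpressed IRE1a came on top of the cells' own Ern1, the promoter in the viruses is not stated, knockdown rests on 1 hairpin, and the 48-hour and 72-hour groups differ in virus, time and glucagon. Those 2 arms were therefore not tested against each other.

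IRE1a, encoded by Ern1, is an ER membrane sensor with a kinase and an RNase domain, and its RNase splices Xbp1 mRNA so that a transcription factor, XBP1s, is made. S724A replaces a serine of the kinase domain by alanine. Calreticulin (Calr) and calnexin (Canx) are the lectin chaperones that hold monoglucosylated glycoproteins in the folding cycle, and calreticulin also binds calcium in the ER lumen. MANF is a small ER protein that binds the chaperone BiP and can be secreted, and the CRELD and nucleobindin families each have 2 members among the 8 genes. XBP1s and ATF6 are known to act through the ER stress response element (ERSE), in which CCAAT is followed after 9 bases by CCACG.

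The promoters are shown because 3 of the 7 genes with a promoter in the table used hold an exact ERSE close to the start site. RefSeq windows of 250 bases before to 50 bases after the start (build GRCm38.p6) were in the table used for 7 of the 8 genes, with Manf the one not matched, and were searched on both strands for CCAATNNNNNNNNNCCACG. The element was in Creld2, Calr and Canx, and in 39 of 32851 windows of all genes (0.119%). A gene can have several windows, and by gene the element was in 37 of 27025 (0.137%). The sites are aligned here in the direction CCAAT to CCACG, with those 2 motifs in capitals.
Creld2: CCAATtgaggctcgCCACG
Calr: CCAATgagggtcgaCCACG
Canx: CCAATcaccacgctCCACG
Counted from -1 as the base before the start, the Creld2 site spanned -126 to -108 and the Calr site -162 to -144, both on the strand opposite to the gene. The Canx site spanned -145 to -127 on the gene's own strand, and its 9-base spacer holds a further CCACG. The related ERSE-II, ATTGGNCCACG, was found only in Nucb1 among the 7 genes, at -41 to -31 on the opposite strand, and in 12 of the 32851 windows (0.0365%); its capitals mark ATTGG and CCACG.
Nucb1: ATTGGtCCACG
The 8-base element TGACGTGG was in none of the members' windows and in 222 of all windows (0.676%). CCACG alone was in 32.8% of all windows. The 250 bases upstream of the start follow for the 3 genes with an ERSE and for Nucb2, whose signal changed most among the 8 genes and whose window held CCAAT and CCACG but not at the ERSE spacing. Capitals mark CCAAT and CCACG of the ERSE as read on the gene's strand (CGTGG and ATTGG where the site lies on the other strand), or, in Nucb2, CCACG.
Creld2 (chr15:88819396-88819645, plus strand): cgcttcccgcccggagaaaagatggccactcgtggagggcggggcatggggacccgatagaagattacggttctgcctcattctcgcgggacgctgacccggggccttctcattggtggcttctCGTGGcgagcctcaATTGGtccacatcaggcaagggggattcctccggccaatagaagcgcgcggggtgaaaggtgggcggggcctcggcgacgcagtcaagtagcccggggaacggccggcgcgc
Calr (chr8:84846932-84847181, minus strand): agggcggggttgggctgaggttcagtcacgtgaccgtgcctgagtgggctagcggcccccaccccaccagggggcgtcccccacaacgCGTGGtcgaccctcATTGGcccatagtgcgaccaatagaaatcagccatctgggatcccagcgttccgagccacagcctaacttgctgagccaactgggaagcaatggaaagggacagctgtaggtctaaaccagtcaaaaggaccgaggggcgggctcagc
Canx (chr11:50325674-50325923, minus strand): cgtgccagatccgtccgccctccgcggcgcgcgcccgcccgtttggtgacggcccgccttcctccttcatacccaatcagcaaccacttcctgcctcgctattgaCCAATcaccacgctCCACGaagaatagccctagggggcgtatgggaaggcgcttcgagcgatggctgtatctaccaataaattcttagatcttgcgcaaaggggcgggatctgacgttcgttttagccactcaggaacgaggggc
Nucb2 (chr7:116504119-116504368, plus strand): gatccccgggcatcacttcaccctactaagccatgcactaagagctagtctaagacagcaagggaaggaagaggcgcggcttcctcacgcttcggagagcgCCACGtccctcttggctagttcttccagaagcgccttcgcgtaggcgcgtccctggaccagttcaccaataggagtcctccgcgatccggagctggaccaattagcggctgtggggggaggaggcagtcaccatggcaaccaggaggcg

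The median log2 signal of an array ranged from 5.69 to 5.83, and 79.0 to 81.4% of probe sets reached 4. The hairpin lowered Ern1 from 8.98 ± 0.11 to 7.52 ± 0.08 (mean ± SD, n = 3), a fall of 2.76-fold (limma, adjusted p = 0.00293), on its brightest probe set, 1437119_at. The other 4 tested Ern1 probe sets changed by -0.58, -0.65, -0.43 and 0.35, and none of them passed the threshold (limma over probe sets, adjusted p = 0.148 to 0.633). As the mean of its 5 probe sets Ern1 changed by -0.56 (limma, adjusted p = 0.0258). Ern1 read 8.97 ± 0.39 with EGFP, 9.09 ± 0.20 with wild-type IRE1a and 9.42 ± 0.34 with S724A, and neither difference passed the threshold of 0.05 (limma, adjusted p = 0.775 and 0.159; with the replicate number as a block, S724A reached 0.0215). Whether the Ern1 probe sets read the viral transcript is not stated, so Ern1 does not check the labels of those arrays: directions below are for the arrays labelled wild-type or S724A IRE1a. Xbp1 rose by 0.63 ± 0.11 (SE) in the first and 0.52 ± 0.11 in the second (limma, adjusted p = 0.00309 and 0.0137, the latter lost at 0.0737 without EGFP replicate 2 and 0.0722 without S724A replicate 2). Its probe sets 1420011_s_at and 1420886_a_at also rose in both. The dimmer 1420012_at, with a mean of 7.34, changed by 0.06 and 0.05 (limma over probe sets, adjusted p = 0.845 and 0.830). As the mean of its probe sets Xbp1 rose by 0.51 and 0.48 (limma, adjusted p = 0.0141 and 0.0230). Whether these sets tell spliced from unspliced Xbp1 mRNA was not looked up here. Of 16294 genes tested, 828 rose and 422 fell with wild-type IRE1a, 631 rose and 366 fell with S724A, and 8 rose and 30 fell with the IRE1a hairpin (limma). With the replicate block the same comparisons called 1726 and 813, 1448 and 899, and 87 and 113, and with quantile normalisation 758 and 610, 459 and 491, and 18 and 34. The 7 hepatocyte markers on the array averaged between 9.58 and 14.3 per gene, with Alb at 14.3, while the median gene mean was 5.31 for macrophage, 5.77 for endothelial, 5.42 for stellate and 5.96 for cholangiocyte markers. Among macrophage markers Cd68 stood at 11.7 and Ptprc at 3.00, and among stellate markers Lrat stood at 3.23. No tested non-hepatocyte marker passed the threshold in any comparison, and among hepatocyte markers only Hnf4a did, rising by 0.74 with wild-type IRE1a (limma, adjusted p = 0.0237).

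Manf, Nucb2, Creld2 and Calr, 4 of the 8 genes, rose with wild-type IRE1a, and these 4 and Canx rose with S724A; Nucb1, Creld1 and Sdf4 passed the threshold in neither. Across all tested genes 5.08% rose with wild-type IRE1a and 3.87% with S724A. The median change of the 8 genes was 0.63 and 0.90 on the log2 scale, beside 0.00 and -0.01 for all tested genes. Both comparisons use the same EGFP arrays. In bulk RNA, a change in the number of cells that express a gene and a change in RNA per cell cannot be told apart.

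**Figure D1:**
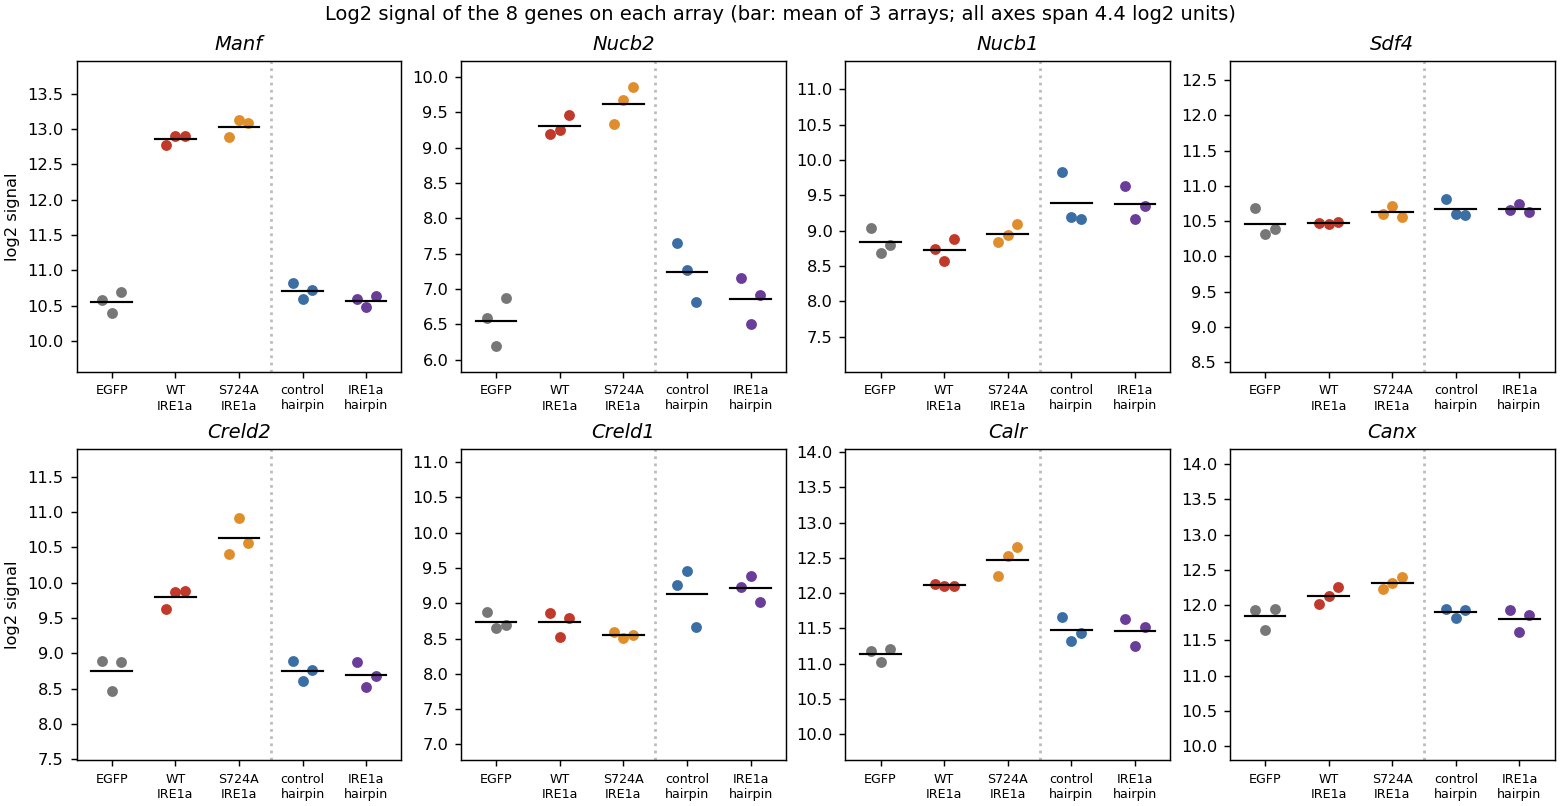
Log2 signal (vertical axis) of each of the 8 genes on the 15 arrays, by group; points are arrays, bars are means of 3, and the dotted line parts the 48-hour arm from the 72-hour arm with glucagon. All axes span the same range, so heights of changes compare between panels; Manf, Nucb2, Creld2 and Calr stand apart from EGFP in both IRE1a groups, and Nucb1, Creld1 and Sdf4 do not rise apart from it.

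Manf, which encodes the BiP-binding protein described above, read 10.59, 10.40 and 10.69 with EGFP, 12.78, 12.90 and 12.90 with wild-type IRE1a and 12.89, 13.13 and 13.09 with S724A. Every IRE1a array lay more than 2 log2 units above the highest EGFP array, and the ranges of the IRE1a groups overlapped each other. The rise was 2.30 ± 0.11 (SE) with wild-type IRE1a, or 4.93-fold (limma, adjusted p = 2.06e-08), and 2.48 ± 0.11 with S724A, or 5.56-fold (limma, adjusted p = 7.43e-09). By size of change Manf ranked 12th from the top of the 16294 genes with wild-type IRE1a and 8th with S724A. Under glucagon it read 10.82, 10.59 and 10.72 with the control hairpin and 10.59, 10.48 and 10.64 with the IRE1a hairpin, ranges that overlapped each other and that of EGFP.

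Nucb2 encodes an EF-hand calcium-binding protein of the secretory pathway that is also the precursor of the secreted peptide nesfatin-1. Its arrays read 6.59, 6.19 and 6.87 with EGFP, 9.20, 9.26 and 9.47 with wild-type IRE1a and 9.34, 9.68 and 9.86 with S724A. The EGFP range did not touch either IRE1a range, and the IRE1a ranges overlapped. Nucb2 rose by 2.76 ± 0.23 with wild-type IRE1a (6.77-fold; limma, adjusted p = 3.75e-06) and by 3.07 ± 0.23 with S724A (8.43-fold; limma, adjusted p = 1.06e-06), the 5th highest change of all tested genes in both comparisons. In the 72-hour arm it read 7.65, 7.27 and 6.81 with the control hairpin and 7.16, 6.50 and 6.92 with the IRE1a hairpin. Those ranges overlapped, and the SDs of 0.42 and 0.33 in this arm and 0.34 with EGFP were the widest of the 8 genes in those groups.

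Nucb1, the Golgi-resident relative of Nucb2, read 9.03, 8.68 and 8.80 with EGFP, 8.74, 8.57 and 8.87 with wild-type IRE1a and 8.84, 8.94 and 9.09 with S724A. All 3 ranges overlapped. Its changes were -0.11 ± 0.17 (95% CI -0.48 to 0.26) and 0.12 ± 0.17 (-0.26 to 0.49), neither past the threshold (limma, adjusted p = 0.778 and 0.714). The hairpin arrays read 9.83, 9.20 and 9.16 for the control and 9.63, 9.17 and 9.36 for IRE1a, all above the highest array of the 48-hour arm, from which they differ in virus, time and glucagon together.

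Sdf4 encodes Cab45, an EF-hand protein of the Golgi lumen that helps to sort secreted cargo. It read 10.69, 10.32 and 10.39 with EGFP, 10.47, 10.45 and 10.49 with wild-type IRE1a and 10.61, 10.72 and 10.56 with S724A. EGFP overlapped both groups, and the changes were 0.00 ± 0.11 and 0.16 ± 0.11 (limma, adjusted p = 0.988 and 0.372). Under glucagon the control hairpin gave 10.82, 10.60 and 10.58 and the IRE1a hairpin 10.65, 10.74 and 10.63, within overlapping ranges. Its probe set 1455584_at, with a mean of 6.38, changed by 0.07 ± 0.19 and 0.37 ± 0.19 and did not pass the threshold (limma, adjusted p = 0.883 and 0.279). The probe set 1448367_at averaged 3.65 and was not tested because it did not reach 4 on 3 arrays.

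Creld2, which encodes a secreted ER protein with EGF-like repeats and is known as a target of ER stress signalling, read 8.89, 8.47 and 8.87 with EGFP, 9.63, 9.87 and 9.87 with wild-type IRE1a and 10.41, 10.91 and 10.56 with S724A. The 3 ranges stood apart, with S724A highest. The rise was 1.05 ± 0.15 with wild-type IRE1a (2.07-fold; limma, adjusted p = 0.000659) and 1.88 ± 0.15 with S724A (3.68-fold; limma, adjusted p = 3.26e-06). Under glucagon it read 8.90, 8.60 and 8.76 with the control hairpin and 8.88, 8.52 and 8.68 with the IRE1a hairpin, overlapping each other and EGFP.

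Creld1, the membrane-anchored relative of Creld2, read 8.87, 8.66 and 8.70 with EGFP and 8.87, 8.52 and 8.79 with wild-type IRE1a, and these ranges overlapped. With S724A it read 8.59, 8.50 and 8.55, all 3 below the lowest EGFP array. Neither change passed the threshold, at -0.01 ± 0.17 (95% CI -0.38 to 0.35) and -0.19 ± 0.17 (-0.56 to 0.17; limma, adjusted p = 0.980 and 0.512). The control hairpin gave 9.26, 9.46 and 8.66 and the IRE1a hairpin 9.23, 9.39 and 9.02, with control replicate 3 well below the other two.

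Calr, the lectin chaperone of the lumen, read 11.18, 11.02 and 11.21 with EGFP, 12.12, 12.11 and 12.10 with wild-type IRE1a and 12.25, 12.52 and 12.66 with S724A. As for Creld2, the 3 ranges stood apart and S724A was highest. It rose by 0.98 ± 0.13 with wild-type IRE1a (1.97-fold; limma, adjusted p = 0.000271) and by 1.34 ± 0.13 with S724A (2.53-fold; limma, adjusted p = 1.54e-05). The hairpin arrays read 11.67, 11.32 and 11.43 for the control and 11.63, 11.25 and 11.52 for IRE1a, overlapping each other and all above the highest EGFP array. The other Calr probe sets, 1433806_x_at and 1456170_x_at, rose by 1.03 and 1.02 with wild-type IRE1a and by 1.29 and 1.38 with S724A (limma, adjusted p between 4.88e-06 and 0.000180); the suffix _x_at marks sets whose probes may also bind other transcripts.

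Canx, the membrane-bound lectin of the same cycle, was called with S724A alone and by a narrow margin. Its probe set with the highest signal, 1415692_s_at, read 11.94, 11.65 and 11.95 with EGFP, 12.01, 12.13 and 12.25 with wild-type IRE1a and 12.24, 12.31 and 12.39 with S724A. Every IRE1a array exceeded every EGFP array, and the IRE1a ranges overlapped. The change was 0.29 ± 0.11 (95% CI 0.04 to 0.53) with wild-type IRE1a (limma, adjusted p = 0.153) and 0.47 ± 0.11, or 1.39-fold, with S724A (limma, adjusted p = 0.0245). The S724A call was lost without EGFP replicate 2 (0.37; adjusted p = 0.128), S724A replicate 2 (0.47; 0.0816) or S724A replicate 3 (0.43; 0.0949), and the wild-type change passed when the gene was the mean of its probe sets (0.56; limma, adjusted p = 0.0245). Under glucagon it read 11.95, 11.82 and 11.93 with the control hairpin and 11.93, 11.63 and 11.86 with the IRE1a hairpin, in overlapping ranges.

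The 3 Canx probe sets differed in the size of the change. The second, 1422845_at, read 10.65, 10.41 and 10.75 with EGFP, 10.69, 11.09 and 11.12 with wild-type IRE1a and 11.09, 11.23 and 11.34 with S724A, so that the wild-type range overlapped EGFP and the S724A range did not. The third, 1428935_at, read 6.22, 6.11 and 6.13 with EGFP, 6.90, 7.14 and 7.49 with wild-type IRE1a and 7.18, 7.58 and 7.48 with S724A, with both groups well apart from EGFP. The second changed by 0.36 ± 0.15 and 0.62 ± 0.15 (limma over probe sets, adjusted p = 0.192 and 0.0275) and the third by 1.03 ± 0.21 and 1.26 ± 0.21 (limma, adjusted p = 0.00833 and 0.00225). The S724A calls of the first and second were each lost without some single arrays, EGFP replicate 2 among them in both cases (adjusted p = 0.154 and 0.144), and those of the third were kept. Which part of the Canx transcript each set reads was not looked up here.

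**Figure D2:**
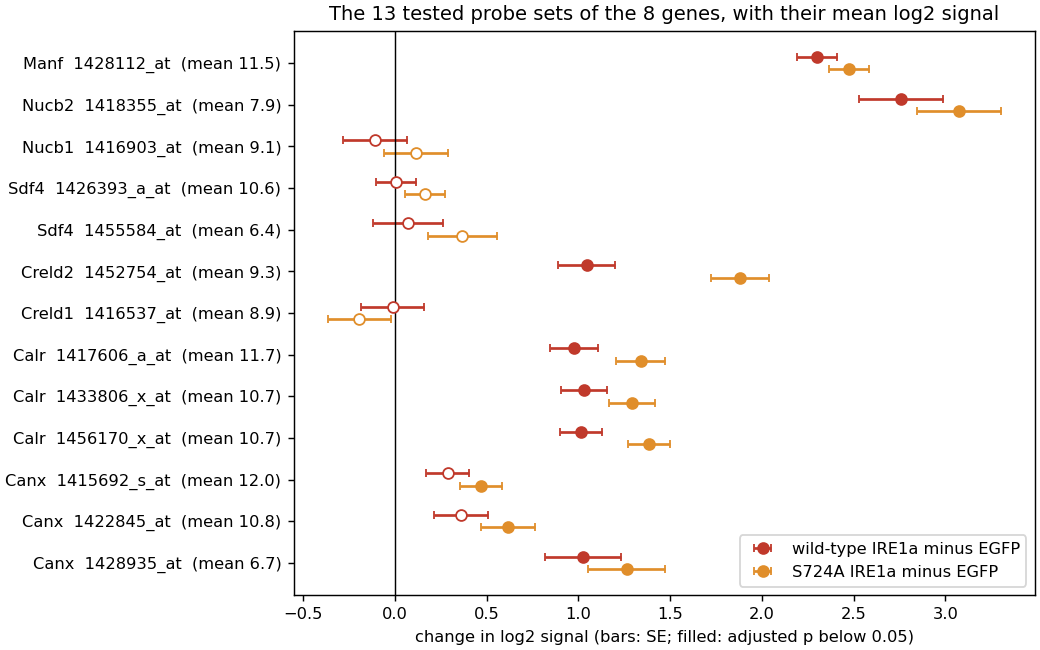
Change in log2 signal (horizontal axis, bars are SE) of the 13 tested probe sets of the 8 genes with wild-type and S724A IRE1a against EGFP, 3 arrays a group; filled points have an adjusted p below 0.05. The 3 Calr sets lie together between 0.98 and 1.38, and the Canx set 1428935_at lies to the right of the other two.

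Over probe sets, 7 of the 13 tested rose with wild-type IRE1a and 9 with S724A, beside 3.77% and 3.13% of the 30046 probe sets tested. The arrays of the IRE1a group were all above those of EGFP for 5 of the 8 genes in either comparison, where 15.8% and 16.5% of all genes showed this. The arrays were all below those of EGFP for 1 of the 8 genes, Creld1 with S724A, where 16.8% of all genes showed this.

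Wild-type and S724A IRE1a were compared directly. The amount of IRE1a made from each virus is not known here. A difference due to the variant and one due to that amount cannot be told apart. No gene of the 8 and none of the 16294 tested (0%) passed the threshold (limma), while 2 of the 8, Creld2 and Calr, and 997 genes in all had an unadjusted p below 0.05. Creld2 was lower with wild-type IRE1a by 0.84 ± 0.15 (95% CI 0.50 to 1.17 lower), that is 1.78-fold higher with S724A, at an unadjusted p of 8.73e-05 and an adjusted p of 0.203 (limma; 0.124 to 0.944 over the alternatives). Calr was 0.36 ± 0.13 lower (1.29-fold higher with S724A; limma, unadjusted p = 0.0138, adjusted p = 0.801). For Creld2, Calr and Sdf4 all wild-type arrays lay below all S724A arrays, which held for 4.69% of all genes. The mean was lower with wild-type IRE1a for 7 of the 8 genes, Creld1 being the exception. The median change was -0.20 for the 8 genes and 0.03 for all tested genes. For Manf the 95% CI of the difference ran from -0.40 to 0.05, and for Nucb2 from -0.80 to 0.17. These ranges and intervals leave out that wild-type and S724A arrays are paired by replicate number. At each replicate number the same 7 genes, Manf and Nucb2 among them, were lower with wild-type IRE1a, and Creld1 was higher. The share of all genes that keep a single direction in this way is not given here. With replicate number as a block no gene of the 8 passed the threshold (limma, adjusted p = 0.124 for Creld2 and 0.342 for Calr).

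The IRE1a hairpin was compared with the control hairpin under glucagon. Xbp1 changed by -0.08 ± 0.11, with overlapping arrays (limma, adjusted p = 0.881). The arrays do not measure IRE1a protein or its RNase activity. The comparison therefore cannot decide whether the 8 genes depend on the cells' own IRE1a. None of the 8 genes passed the threshold and none had an unadjusted p below 0.05, while 0.233% of all genes passed and 1260 had an unadjusted p below 0.05 (limma). All 8 overlapped between the hairpins, where 11.5% of all genes did not, and 6 of the 8 means were lower with the IRE1a hairpin. The median change was -0.04 for the 8 genes and 0.02 for all tested genes. Replicate numbers pair the samples within this arm, which the ranges and the intervals below leave out. At each replicate number Manf, Creld2 and Canx, on its brightest probe set, were lower with the IRE1a hairpin, and the other genes went both ways. With replicate number as a block none of the 8 genes passed the threshold either. Nucb2 differed most, at -0.39 ± 0.23 (95% CI -0.87 to 0.10; limma, adjusted p = 0.705), followed by Manf at -0.14 ± 0.11 (-0.37 to 0.09; limma, adjusted p = 0.752). For Creld2 the interval ran from -0.39 to 0.27, for Calr from -0.28 to 0.27 and for Canx from -0.34 to 0.15. These intervals leave room for changes of those sizes.

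**Figure D3:**
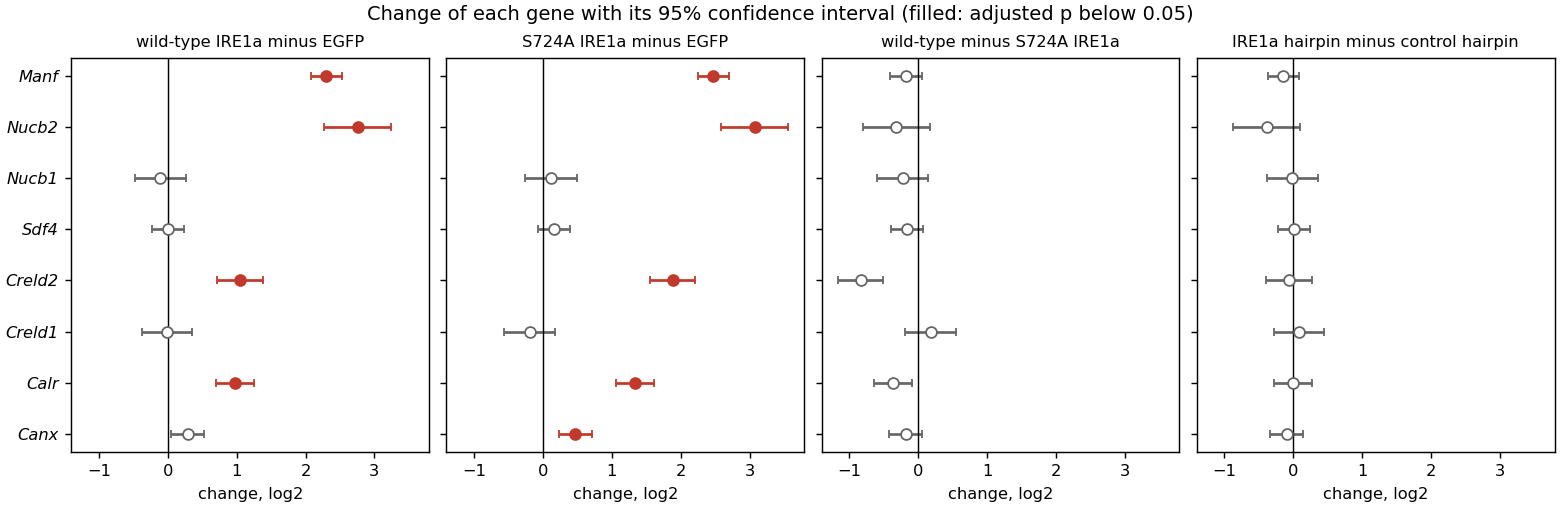
Change in log2 signal (horizontal axes) of each gene with its 95% confidence interval in the 4 comparisons, from the model on 15 arrays; filled points have an adjusted p below 0.05. Manf and Nucb2 lie farthest to the right in both comparisons with EGFP, and no point is filled in the other two panels.

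Ordered by mean, Manf, Nucb2, Creld2 and Canx had EGFP and both hairpin groups together at the low end, with overlapping neighbours, then a gap between the control hairpin and wild-type IRE1a, then S724A. For Calr there was a further gap between EGFP, lowest at 11.14, and the hairpin groups at 11.47. Nucb1 instead had its gap between S724A at 8.95 and the hairpin groups at 9.38 and 9.40. In Sdf4 the neighbours wild-type IRE1a at 10.47 and S724A at 10.63 did not overlap, and in Creld1 every pair of neighbours did. These orders are a description, since the arms differ in virus, time and glucagon.

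Related genes were set against each other on each array, so that a shift common to an array drops out. Creld2 minus Creld1 rose above its EGFP mean by 1.06 ± 0.20 (SE) with wild-type IRE1a and by 2.08 ± 0.20 with S724A, and the 3 groups did not overlap. Nucb2 minus Nucb1 rose by 2.87 ± 0.19 and 2.96 ± 0.20, and the IRE1a groups overlapped each other. Calr minus Canx rose by 0.69 ± 0.09 and 0.87 ± 0.09. Each of these 6 differences separated the groups completely and had an exact two-sided permutation p of 0.1, the smallest that 3 arrays against 3 can give, and 0.15 after adjustment over the 12 comparisons made. Averaging the probe sets of each gene lowered the Calr minus Canx values to 0.45 and 0.55. The difference depends on the Canx probe set, here 1415692_s_at. The dimmer Canx set 1428935_at, with a mean of 6.70, changed by 1.03 and 1.26, beside 0.98 and 1.34 for Calr. Under glucagon, Nucb2 minus Nucb1 was lower with the IRE1a hairpin by 0.37 ± 0.14, with no overlap (exact permutation p = 0.1, adjusted 0.15), while Creld2 minus Creld1 and Calr minus Canx overlapped (exact permutation p = 0.9 and 0.4).

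**Figure D4:**
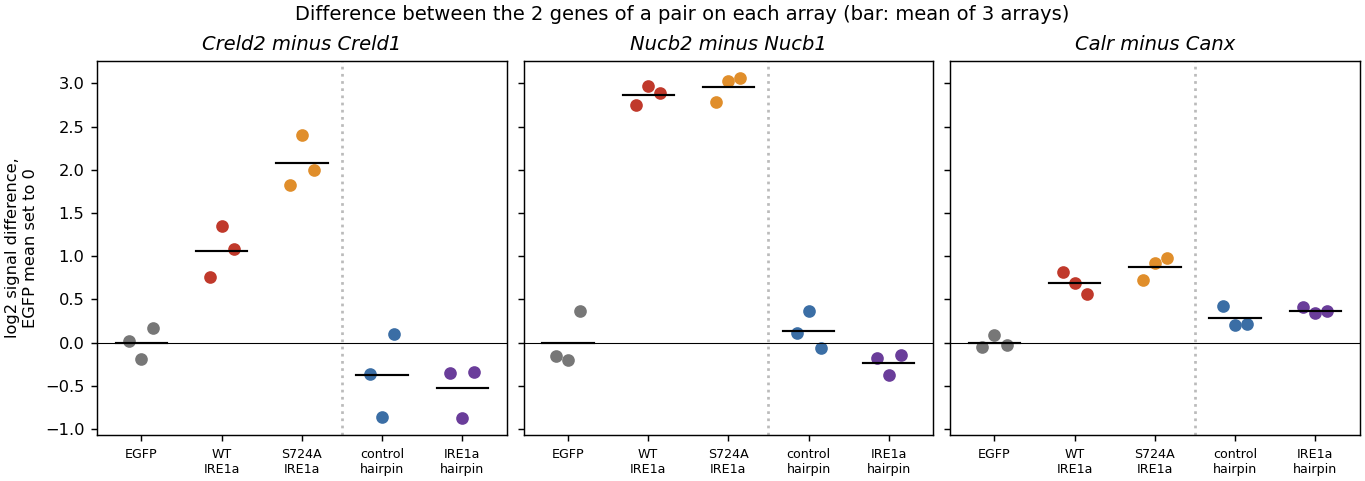
Difference in log2 signal between the genes of a pair on each array (vertical axis), with the EGFP mean set to 0; points are arrays and bars are means of 3. Both IRE1a groups lie above EGFP in the 3 panels, and S724A lies above wild-type IRE1a without overlap in Creld2 minus Creld1 alone.

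Further genes of the same machinery were taken as 4 lists. Of 14 genes of the calnexin and calreticulin cycle, 7 rose with wild-type IRE1a and 9 with S724A, none fell past the threshold, and the median change was 0.51 and 0.71. Over all tested genes 5.08% and 3.87% rose, and the median change was 0.00 and -0.01. The mean was lower for 5 of the 14 with wild-type IRE1a and for 4 with S724A. With wild-type IRE1a, Lman2l (-0.34) and Prkcsh (-0.43) lay wholly below EGFP without passing (limma, adjusted p = 0.0502 and 0.0659). With wild-type IRE1a, Edem3 (0.42; adjusted p = 0.227) and Uggt1 (0.26; 0.164) did not pass as the mean of their probe sets, nor did Uggt1 with the 6 arrays fitted alone (0.0833) or with the second EGFP array (0.124), the third (0.0842) or the third wild-type array (0.121) left out. With S724A, Lman2 did not pass with quantile normalisation (0.0517) and Pdia3 with a floor at 4 (0.0511). Neither passed without EGFP replicate 2 or 3 or S724A replicate 1 or 2 (adjusted p from 0.0588 to 0.164), nor Pdia3 without S724A replicate 3 (0.103). Lman1, the cargo lectin ERGIC-53, rose by 1.30 ± 0.11 and 1.45 ± 0.11 (limma, adjusted p = 3.77e-06 and 1.06e-06), and Mcfd2, its EF-hand partner, by 1.14 ± 0.10 and 1.02 ± 0.10 (limma, adjusted p = 5.78e-06 and 1.54e-05). Edem2, which acts in mannose trimming of misfolded glycoproteins, rose by 1.69 ± 0.15 and 1.70 ± 0.15 (limma, adjusted p = 5.98e-06 and 5.04e-06), or by 0.92 and 0.96 as the mean of its probe sets. Mogs, the glucosidase that removes the first glucose, rose by 0.73 ± 0.12 and 0.84 ± 0.12 (limma, adjusted p = 0.00131 and 0.000473). Edem1 rose by 0.81 ± 0.14 and 1.00 ± 0.14 (limma, adjusted p = 0.00201 and 0.000436). As the mean of its probe sets Lman1 rose by 0.81 with wild-type IRE1a (limma, adjusted p = 0.00570).

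Of 6 retrieval receptors and partners of MANF, 5 rose in each comparison, beside 5.08% and 3.87% of all tested genes. Their median change was 0.92 and 0.90. As the mean of probe sets Kdelr2 did not pass with S724A (0.44 in place of 0.97; limma, adjusted p = 0.335 in place of 0.00165), which left 4. Hsp90b1, the ER chaperone GRP94, rose by 1.01 ± 0.11 and 1.40 ± 0.11, and Kdelr3, a receptor that returns escaped ER proteins, by 1.25 ± 0.16 and 1.34 ± 0.16 (limma, adjusted p between 1.76e-06 and 0.000213). Its relative Kdelr1 rose by 0.83 ± 0.12 in both, and Kdelr2 by 1.18 ± 0.16 with wild-type IRE1a (limma, adjusted p between 0.000286 and 0.000528). Hspa5, which encodes BiP, rose by 0.56 ± 0.11 with wild-type IRE1a and by 0.83 ± 0.11 with S724A (limma, adjusted p = 0.00475 and 0.000262).

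Of 17 calcium pumps, channels and sensors tested, 1 rose and 1 fell with wild-type IRE1a, 1 fell with S724A, and the median change was -0.04 and -0.07. Among all 16294 genes tested, 828 rose and 422 fell with wild-type IRE1a, and 631 rose and 366 fell with S724A. Stim2, an ER calcium sensor of store-operated entry, fell by 1.76 ± 0.12 on the log2 scale with wild-type IRE1a and fell by 1.83 ± 0.12 with S724A (limma, adjusted p = 4.62e-07 and 2.99e-07). As the mean of its probe sets Stim2 fell by 1.09 and fell by 1.16. Saraf, a regulator of that entry, rose by 0.40 ± 0.10 with wild-type IRE1a (limma, adjusted p = 0.0177), but did not pass when EGFP replicate 2 (0.0642) or 3 (0.0635) or the third wild-type array (0.0629) was left out, or with the 6 arrays fitted alone (0.0511). Of 6 relatives of the 8 genes, the reticulocalbins, calumenin, calmegin and Calr3, only Calu, an EF-hand protein of the ER, passed, at 0.66 ± 0.17 and 0.69 ± 0.17 (limma, adjusted p = 0.0311 and 0.0296). That call was lost without any single wild-type array and without any single EGFP array in the first comparison (adjusted p up to 0.135), and in the second without EGFP replicate 2 or 3 or any S724A array (0.0621 to 0.136), and in both with quantile normalisation, a floor at 4 or the mean of probe sets. No gene of the 4 lists passed in wild-type against S724A IRE1a or in the hairpin comparison (limma), where 5 and 1 of the 43 had an unadjusted p below 0.05.

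**Figure D5:**
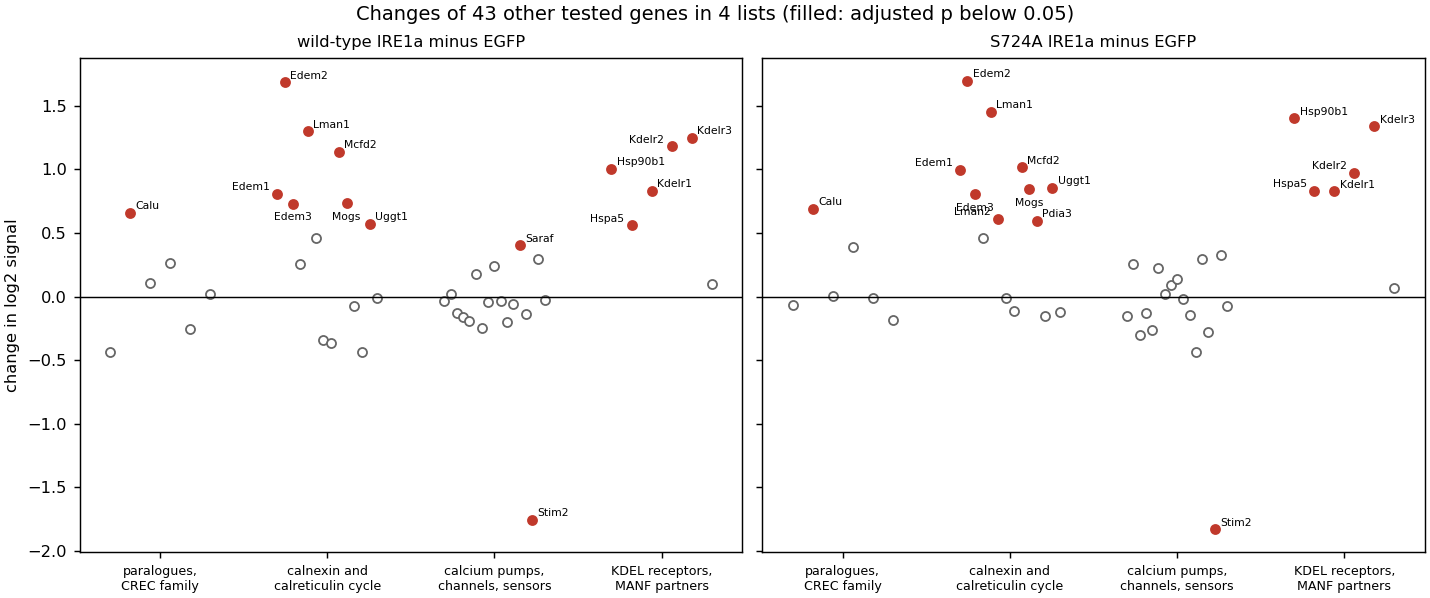
Change in log2 signal (vertical axes) of the 43 other tested genes of the 4 lists against EGFP; each point is a gene, in alphabetical order within its list, and filled, named points have an adjusted p below 0.05. Filled points lie above 0 in the calnexin cycle and the retrieval receptors, and Stim2 lies lowest in both panels.

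Over the 15 arrays, the tested genes whose signal ran most like each member were found by Pearson correlation, a description over arrays that fall into 5 groups and share the group differences. Manf ran closest to Fkbp11, an ER prolyl isomerase (r = 0.99), Plpp5 (0.99) and Arfgef3 (0.99). Nucb2 ran closest to Sec61a1, the core of the translocation channel, Tram1 and the vesicle tether Uso1, all at 0.99. Calr shared Sec61a1 (0.98) and was followed by the cargo receptor Surf4 (0.97) and Selenos (0.97). Creld2 ran closest to Sdf2l1 (0.97), the disulfide isomerase gene P4hb (0.97) and Hsp90b1 (0.96), and Canx to Dnajc10 (0.95), Papss2 (0.94) and Dnajb11 (0.94). The highest values were 0.92 for Creld1, with Nppc, 0.96 for Nucb1, with Nectin2, and 0.88 for Sdf4, with Stx16.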

How the data were processed

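Signals were measured on 15 arrays, 3 in each of 5 groups. The authors processed the arrays with GCRMA, per the submitters' processing notes (version not given in the sources used here), and deposited 1 value per probe set and array, read here as log2 signal from its range. GCRMA adjusts background by probe sequence, so low signals are the least certain. A gene was its single-symbol probe set with the highest mean, named by the platform table, and was tested at 4 or more on at least 3 arrays: 16294 of 18193 genes. The limma package (3.58.1, R 4.3.3) fitted 5 groups to all arrays (10 residual degrees of freedom), with two-sided moderated tests, Benjamini-Hochberg adjustment over all genes and a threshold of 0.05. All probe sets were fitted the same way. The median half-width of a 95% confidence interval was 0.30, which depends on the number of arrays and on the spread within groups. The p-values are set against that spread between cultures. Without a replicate block it includes shifts shared by arrays of one replicate number. The code was checked on simulated data.

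The members and lists were chosen with earlier results of these data known. Genes named were the 8 members, Ern1 and Xbp1, up to 4 called genes per list and comparison with the smallest p, and the 3 genes most correlated with each member. Named outside this rule were Edem3, Uggt1, Lman2, Pdia3, Lman2l, Prkcsh and the markers Alb, Cd68, Ptprc and Lrat. The values of Kdelr2 and Mogs with S724A and of Edem1 and Hspa5 with wild-type IRE1a were also given outside it. Hnf4a was named after its value was seen. Promoters are from RefSeq (GRCm38.p6). Replicate numbers were checked for pairing: in 12 same-number pairs within an arm, deviations from group means correlated at 0.20 to 0.69, all above 0.1, and in 18 pairs across arms at -0.08 to 0.23, so numbers pair the samples within an arm. Alternatives were quantile normalisation, median centring, other filters and floors, the mean of probe sets, trended variances, 6 arrays alone, a replicate block and leaving out each array. Recomputing the list genes, probe sets and related-gene differences under these was added after seeing the data.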

Additional observations from a re-analysis of the deposited data

How the results depend on the processing

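In the main fit 4 of the 8 genes were called with wild-type IRE1a, 5 with S724A and 0 in the other comparisons. Most of the changes recomputed were thus uncalled from the start, and for those keeping their side says little. Across the 8 genes and 4 comparisons, 512 changes were recomputed, and 508 kept their side of the threshold and their direction where called. The other 4 concern Canx: its S724A call was lost without 1 of 3 single arrays, and its wild-type change passed as the mean of probe sets. With the replicate block no call of the 8 genes changed. The counts of called genes moved more. With the replicate block they were 2539 for wild-type IRE1a, 2347 for S724A, 2 for wild-type against S724A and 200 for the hairpin, in place of 1250, 997, 0 and 38; trended variances also called 2 in the third comparison, and median centring and the 6 hairpin arrays alone called 23 and 5 in the fourth. Leaving out single arrays gave 715 to 1108, 485 to 979, 0 to 0 and 13 to 75 called genes, the lowest of the first 2 ranges without EGFP replicate 2, and 4 to 4 and 4 to 5 of the 8 genes for wild-type and S724A IRE1a. The mean of probe sets put Calr minus Canx at 0.45 and 0.55 in place of 0.69 and 0.87. The share of called genes that rose went with quantile normalisation from 66.2 to 55.4% for wild-type IRE1a, from 63.3 to 48.3% for S724A and from 21.1 to 34.6% for the hairpin (43.5% with the replicate block). The causes were not tested. Signals near 4 and 3 arrays a group limit what small changes can be seen.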
